A study of Mus musculus with 6 samples.

Results

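Chloride channel genes were compared between mammary tumours and mammary glands of female FVB/NJ mice aged 5 months. The tumours came from tumour-bearing mice of the strain FVB/NJ; MMTV-Tg(LINK-A), and the glands from mice labelled FVB/NJ; Tg(LINK-A), with 3 libraries of total RNA in each group. LINK-A is a long non-coding RNA described in human breast tumours, and both strain labels carry its transgene. The MMTV promoter is active mainly in mammary epithelium, and the gland label does not name it. The libraries of a group are labelled as separate samples and nothing states that each is a different animal. The errors and p-values therefore cover the spread between these samples, which may be technical. Strain label and tissue changed together between the groups and cannot be told apart.

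The set holds 10 of the 24421 gene symbols in the table, taken by name: Clic1, Clic3, Clic4, Clic5, Clic6, Ano1, Cftr, Clcn2, Clcn3 and Clcn5. They were selected on their measured tumour and gland FPKM values in these same libraries. Their differences between tumour and gland are therefore given as a description, without p-values. The table names no unit, and its values are read here as FPKM. FPKM scales fragments by the length of the transcript and by the library's mapped total. Under that reading, levels can be set side by side between genes. The sources used here give no read totals, so the counting error behind low values is unknown.

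Chloride channels let chloride leave or enter a cell or an organelle, and in secretory epithelia such as the mammary gland the ions draw water with them into the lumen. The CLIC proteins are soluble proteins with a glutathione transferase-like fold that can also insert into membranes, and their part as channels in the cell is debated. ANO1 is a chloride channel opened by calcium and CFTR is one opened through cyclic AMP. The CLC family includes channels of the plasma membrane, such as CLC-2, and chloride-proton exchangers of endosomes, such as CLC-3 and CLC-5.

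The libraries differed in cell type markers. All 10 luminal epithelium markers passed the test as higher in the tumours, and summed to between 3194 and 3566 FPKM there and to between 1279 and 1363 FPKM in the glands. All 10 adipocyte, 10 endothelium and 8 fibroblast markers passed as lower, and the adipocyte markers summed to between 103 and 419 FPKM in the tumours and to between 12263 and 14150.2 FPKM in the glands. Tumour 3 had the lowest sums of these 3 lists. Other epithelial lists had lower sums in the tumours. Of the hormone-sensing luminal markers 6 of 7 tested passed as lower, with sums of 13.8 to 30.6 FPKM in the tumours and 92.8 to 110.2 FPKM in the glands. Of the basal and myoepithelial markers 6 of 10 passed as lower, with sums of 117 to 330.1 FPKM in the tumours and 641 to 693 FPKM in the glands. The 6 were Acta2, Myh11, Mylk, Oxtr, Cnn1 and Actg2. The keratin genes Krt5 (log2 difference 0.27), Krt14 (0.02) and Krt17 (0.33) did not pass, nor did Trp63 (-0.64). Macrophage and granulocyte markers, of which 2 of 8 passed as higher and 2 as lower, summed to 3518, 2191 and 529.5 FPKM in tumours 1 to 3 and to 195 to 223 FPKM in the glands. Much of the tumour sums was S100a8, at 3100, 1833 and 259 FPKM in tumours 1 to 3, against 28.7, 14.7 and 21.3 FPKM in glands 1 to 3. Cd14 also passed as higher, whereas Csf1r and Adgre1 passed as lower. S100a9 (log2 difference 1.37), Cd68 (-0.29), Itgam (-0.18) and Csf3r (-0.53) did not pass. The B and T cell markers summed to 65.0, 52.2 and 2.59 FPKM in tumours 1 to 3, and to 254, 53.2 and 257 FPKM in glands 1 to 3. The skeletal muscle markers summed to 5.86, 8.05 and 27.2 FPKM in the tumours, and to 13.7, 11759.7 and 1055 FPKM in the glands. Gland 2 was thus highest in muscle genes, with gland 3 next and far above gland 1. Glands 1 and 3 were above gland 2 in lymphocyte genes. In bulk tissue, fewer cells of a type and less RNA per cell cannot be told apart.

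All 10 genes are protein-coding in GENCODE M21 on GRCm38, the build also called mm10. Clic1 (chr17:35049966-35058749, plus strand) and Clic5 (chr17:44188584-44280172, plus strand) lie on chromosome 17. Clic6 (chr16:92485736-92541243, plus strand) and Clcn2 (chr16:20702964-20717746, minus strand) lie on chromosome 16. The others are Clic3 (chr2:25456838-25458776, plus strand), Clic4 (chr4:135213969-135272814, minus strand), Cftr (chr6:18170687-18322768, plus strand), Ano1 (chr7:144588549-144751974, minus strand), Clcn3 (chr8:60910389-60983300, minus strand) and Clcn5 (chrX:7153810-7319358, minus strand). Exons of Clcn2 share 85 bases with Fam131a and 82 bases with Polr2h on the opposite strand, and exons of Cftr share 129 bases with the antisense gene Gm15592. Whether the counting used strand is not given, so reads from those bases cannot be told apart. Clic6 overlaps 2410124H12Rik on the same strand, with 0 exon bases shared.

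RefSeq promoter windows of GRCm38.p6 matched 9 of the 10 genes, all but Clic6. The 250 bases before the RefSeq start are shown for Clic5, the member lower in the tumours, and for Clcn3, a member higher there, since these windows lie outside the annotated gene span. Sequences run 5′ to 3′ on the gene's strand, from chr17:44188322-44188571 (plus strand) for Clic5 and chr8:60983312-60983561 (minus strand) for Clcn3, and capitals mark the GC box GGGCGG or its reverse complement.
Clic5: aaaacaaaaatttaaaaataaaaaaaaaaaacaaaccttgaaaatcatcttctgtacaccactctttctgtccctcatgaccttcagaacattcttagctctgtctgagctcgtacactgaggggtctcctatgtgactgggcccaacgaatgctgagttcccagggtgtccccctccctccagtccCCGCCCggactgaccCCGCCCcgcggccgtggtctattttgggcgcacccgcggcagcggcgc
Clcn3: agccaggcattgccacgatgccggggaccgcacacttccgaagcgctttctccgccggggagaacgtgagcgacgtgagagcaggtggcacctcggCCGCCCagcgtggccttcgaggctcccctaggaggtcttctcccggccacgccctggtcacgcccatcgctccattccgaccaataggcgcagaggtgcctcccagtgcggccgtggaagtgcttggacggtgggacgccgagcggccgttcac
The motifs searched on both strands were the GC box GGGCGG, the CCAAT box CCAAT, the TATA box TATAAA, the E-box CACGTG, the cyclic AMP response element TGACGTCA, the STAT site TTCNNNGAA and the ETS site CGGAAGT. The Clic5 window held 2 GC boxes and no other motif of these. The Clcn3 window held 1 GC box, 1 CCAAT box and 1 ETS site, which did not overlap. With the window of the start farthest upstream for each gene, 9 of the 9 genes held a GC box, against 32.7% of 32851 promoter windows. CpG dinucleotides in these 9 windows numbered from 2 to 30, against a median of 6 over all windows. The share and the median over all windows include further starts of a gene, so they are not a like measure. The further windows of Clcn3 and Clcn5 held no GC box, and 7 and 3 CpG dinucleotides.

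Of the 10 genes, 9 averaged 1 FPKM or more across all 6 libraries and entered the fit over 13364 genes. Clic6 entered through its tumour values and Clic5 through its gland values. Clic3 lay close to the limit at 1.04 FPKM and also entered through its gland values, with means of 0.490 FPKM in the tumours and 1.59 FPKM in the glands. In limma on log2(FPKM + 1), at an adjusted p of 0.05, 4 of the 9 were called higher (Clic6, Clic1, Clcn2, Clcn3) and 1 lower (Clic5). Over all tested genes 21.9% were called higher, 23.1% lower and 45.1% in either direction. Tumour and gland values did not overlap for 6 of the 9, with tumours above glands for 5 and below for 1, beside 58.2% of all tested genes (29.3% with tumours above and 29% below). Since the genes were chosen by this contrast, nothing is read from these counts.

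**Figure D1:**
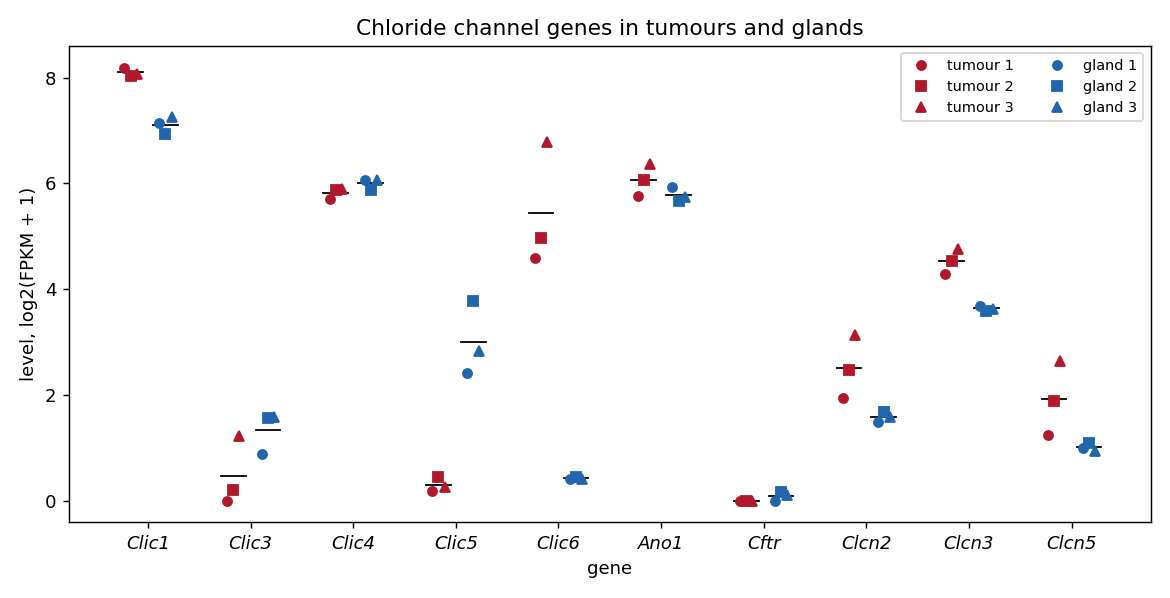
Level of each of the 10 genes in each library, as log2(FPKM + 1) on the y axis, with tumours in red to the left and glands in blue to the right; bars are group means. In the tumours Clic6 spans 4.58 to 6.78, far above its gland points, while Clic4 and Ano1 have overlapping groups.

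Clic6 showed the largest difference of the 10. CLIC6 is the family member with a long N-terminal extension, first described as parchorin in rabbit tissues that secrete water. It measured 22.9, 30.4 and 109 FPKM in tumours 1 to 3, against 0.329, 0.367 and 0.331 FPKM in glands 1 to 3. The groups did not overlap, the glands were tightly grouped at a low level, and tumour 3 was far above the other tumours. The mean was 54.0 ± 47.5 FPKM in the tumours and 0.343 ± 0.0214 FPKM in the glands (SD, n = 3 each), a ratio of means of 158 that rests on gland values near the bottom of the scale. On the log2(FPKM + 1) scale, which understates the changes of low genes, tumours minus glands was 5.02 (SE 0.53). With tumour 3 left out the difference was 4.35. The direction was the same in all 15 alternatives, which follows from the wide gap between the groups on which the gene was chosen. The call was lost without glands 1 and 3 (4.99), which left 1 gland.

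Clic1 was the most abundant of the 10 genes in both tissues. CLIC1 is a widely expressed member of the family. It stood at 292, 262 and 269 FPKM in tumours 1 to 3, against 141, 121 and 152 FPKM in glands 1 to 3. All tumours lay above all glands, with a mean of 274 ± 15.4 FPKM in the tumours and 138 ± 15.8 FPKM in the glands (SD, n = 3 each). The log2 difference was 0.99 (SE 0.12), and it lay between 0.90 and 1.06 with any single library left out.

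Clic4, which encodes a CLIC protein of many cell types that associates with the actin cytoskeleton, hardly differed. It stood at 51.1, 57.9 and 58.7 FPKM in the tumours and at 66.2, 57.8 and 65.6 FPKM in the glands. The groups overlapped through gland 2, and the log2 difference of -0.17 (SE 0.11) did not pass. Endothelium and fibroblast markers were lower in the tumours by 2.26 and 2.85 on the log2 scale in the mean of each list, and their part in the level of Clic4 was not tested.

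Clic5 was the member with the largest difference in the other direction. CLIC5 binds ezrin-family proteins at the base of hair cell stereocilia and is also expressed in skeletal muscle. Clic5 stood at 0.140, 0.367 and 0.197 FPKM in tumours 1 to 3, against 4.31, 12.7 and 6.09 FPKM in glands 1 to 3. All glands lay above all tumours, and gland 2 was highest. The mean was 0.235 ± 0.118 FPKM in the tumours and 7.69 ± 4.41 FPKM in the glands (SD, n = 3 each), a log2 difference of -2.70 (SE 0.34). The skeletal muscle markers summed to 13.7, 11759.7 and 1055 FPKM in glands 1 to 3, and to 5.86, 8.05 and 27.2 FPKM in tumours 1 to 3. Without gland 2, with gland 3 still in the fit, the difference was -2.32. The part of skeletal muscle RNA in the level of Clic5 was not tested.

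Clic3, a member linked to the recycling of integrins through endosomes, was low throughout. It stood at 0, 0.144 and 1.33 FPKM in the tumours and at 0.832, 1.95 and 1.98 FPKM in the glands. The groups overlapped through tumour 3 and gland 1. The log2 difference of -0.87 (SE 0.38) did not pass, and it was called lower without tumour 3 (-1.24).

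The summed level of these 5 CLIC genes was 366, 351 and 438 FPKM in tumours 1 to 3, against 213, 194 and 226 FPKM in glands 1 to 3. Clic6 made up 6.27%, 8.66% and 24.8% of the sum in the tumours, against 0.155%, 0.190% and 0.146% in the glands. The share of Clic4 was 14.0%, 16.5% and 13.4% in the tumours, against 31.1%, 29.9% and 29.0% in the glands. Clic1 held the largest share in every library, from 61.4% to 79.7% in the tumours and from 62.4% to 67.3% in the glands. Clic5 stood below Clic6 in every tumour and above it in every gland.

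**Figure D2:**
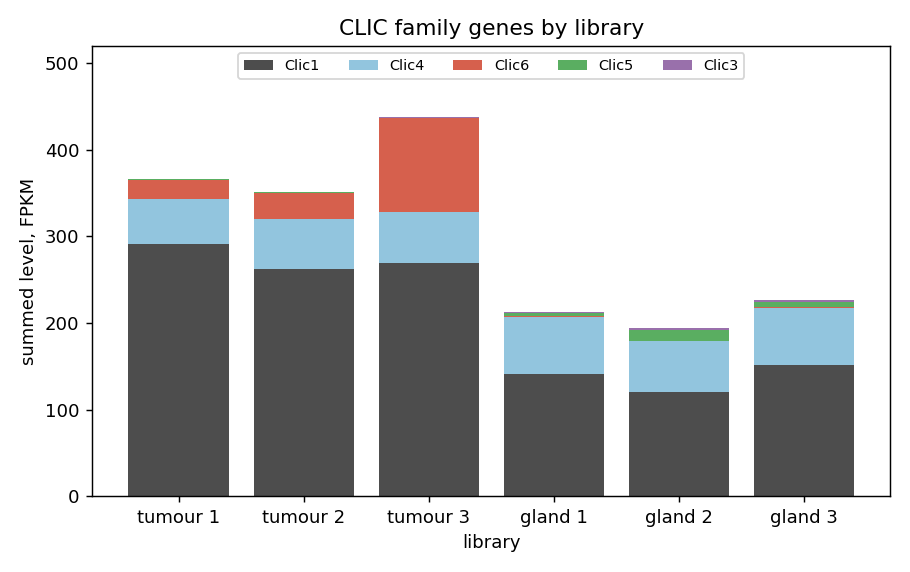
Summed FPKM of the 5 CLIC genes in each library (y axis), with tumours 1 to 3 to the left of glands 1 to 3 and a colour for each gene. The sums are 351 to 438 FPKM in tumours and 194 to 226 FPKM in glands, and the Clic6 segment is widest in tumour 3.

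Ano1, the calcium-activated channel of secretory epithelia and smooth muscle, was among the most abundant of the 10 genes in both tissues. It stood at 53.6, 65.6 and 81.2 FPKM in tumours 1 to 3 and at 60.5, 49.7 and 52.9 FPKM in glands 1 to 3. The groups overlapped, since gland 1 lay above tumour 1. The mean was 66.8 ± 13.8 FPKM in the tumours and 54.4 ± 5.53 FPKM in the glands (SD, n = 3 each), and the log2 difference of 0.28 (SE 0.17) did not pass. Cftr was listed at 0 in all 3 tumours and at 0, 0.114 and 0.0786 FPKM in glands 1 to 3. It was below the limit for testing, and no fold is given.

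The 3 CLC genes all had higher values in the tumours. Clcn3, a chloride-proton exchanger of endosomes and synaptic vesicles, stood at 18.5, 22.1 and 26.2 FPKM in tumours 1 to 3, against 11.9, 11.01 and 11.4 FPKM in glands 1 to 3. All tumours were above all glands, and the log2 difference was 0.89 (SE 0.14). Its call was lost without glands 1 and 3 (0.94).

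Clcn2, the plasma membrane channel that opens on hyperpolarization, stood at 2.86, 4.53 and 7.72 FPKM in tumours 1 to 3, against 1.81, 2.21 and 1.97 FPKM in glands 1 to 3. The groups did not overlap, and the log2 difference was 0.93 (SE 0.29). Its call was close to the threshold. It was lost without tumour 2 (0.95), gland 1 (0.89), gland 2 (0.98) or gland 3 (0.93), with no filter on low values (0.93), at a common sum per library (0.89) and without glands 1 and 3 (0.83). Without tumour 3 the difference was 0.63.

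Clcn5, an endosomal exchanger best known from the kidney proximal tubule, stood at 1.37, 2.67 and 5.28 FPKM in tumours 1 to 3, against 0.981, 1.13 and 0.926 FPKM in glands 1 to 3. The groups did not overlap, but the tumours were spread widely and the log2 difference of 0.92 (SE 0.34) did not pass. It was called higher without tumour 1 (1.26) and under quantile normalization (1.43), and was 0.55 without tumour 3.

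The order of the levels differed between the tissues. By mean FPKM the order in the tumours was Clic1, Ano1, Clic4, Clic6, Clcn3, Clcn2, Clcn5, Clic3, Clic5 and Cftr. In that order the values of neighbours overlapped between Ano1 and Clic4, Clic4 and Clic6, Clic6 and Clcn3, Clcn2 and Clcn5, and Clic3 and Clic5. In the glands the order was Clic1, Clic4, Ano1, Clcn3, Clic5, Clcn2, Clic3, Clcn5, Clic6 and Cftr, with overlaps between Clic4 and Ano1, Clcn3 and Clic5, Clcn2 and Clic3, and Clic3 and Clcn5. Clic6 was thus the second lowest of the 10 genes in the glands and was above all but Clic1, Ano1 and Clic4 by mean in the tumours.

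The tumours differed among themselves. Tumour 3 had the highest tumour value of 7 of the 9 tested genes, as it did for 40.7% of all tested genes, and tumour 1 had the lowest tumour value of 8 of the 9, as it did for 42.7%. The ratio of tumour 3 to tumour 1 was 4.74 for Clic6, 3.85 for Clcn5, 2.70 for Clcn2, 1.51 for Ano1 and 1.42 for Clcn3. It was 1.15 for Clic4 and 0.922 for Clic1. Tumour 3 had 3566 FPKM of summed luminal epithelium markers, against 3234 FPKM in tumour 1, and 125 FPKM of summed fibroblast markers, against 342 FPKM in tumour 1. The part of tissue composition in these spreads was not tested.

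**Figure D3:**
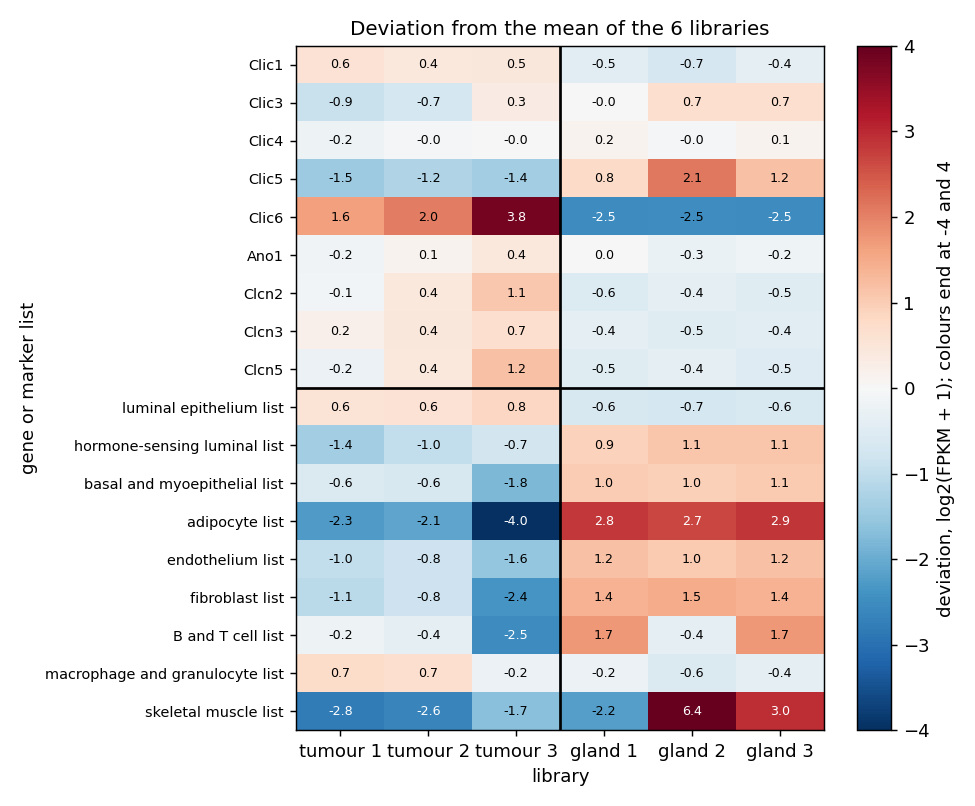
Deviation of each of the 9 tested genes and of each marker list mean from its mean over the 6 libraries, in log2(FPKM + 1), with tumours to the left of glands; red is above the mean, blue is below, and colours end at -4 and 4. Clic6 is high in all tumours and highest in tumour 3, where adipocyte, fibroblast and B and T cell lists are lowest, and Clic5 is highest in gland 2 along with skeletal muscle.

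The luminal epithelium list averaged 1.31 higher in the tumours on the log2(FPKM + 1) scale. When the mean of that list was subtracted from every gene in each library, the median over all tested genes moved to -1.30, and 284 genes were called higher and 11851 lower, against 2933 and 3090 on the deposited scale. The subtraction lowered the difference of every gene by the same 1.31. The signs and the places about the median therefore follow from the deposited-scale differences and are no second result. On the list-relative scale Clic6 was still higher in the tumours, by 3.71, and its tumour values lay above its gland values in every library. Clic1 (-0.32), Clcn2 (-0.38) and Clcn3 (-0.42) turned to lower values in the tumours, of which Clcn3 was called lower. All 3 stood above the median of all genes on that scale. Ano1 (-1.03), Clic4 (-1.48) and Clic3 (-2.17) were called lower, Clic5 was at -4.01 and Clcn5 at -0.39. Of these, Ano1 and Clcn5 also stood above that median, and Clic4, Clic3 and Clic5 stood below it.

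**Figure D4:**
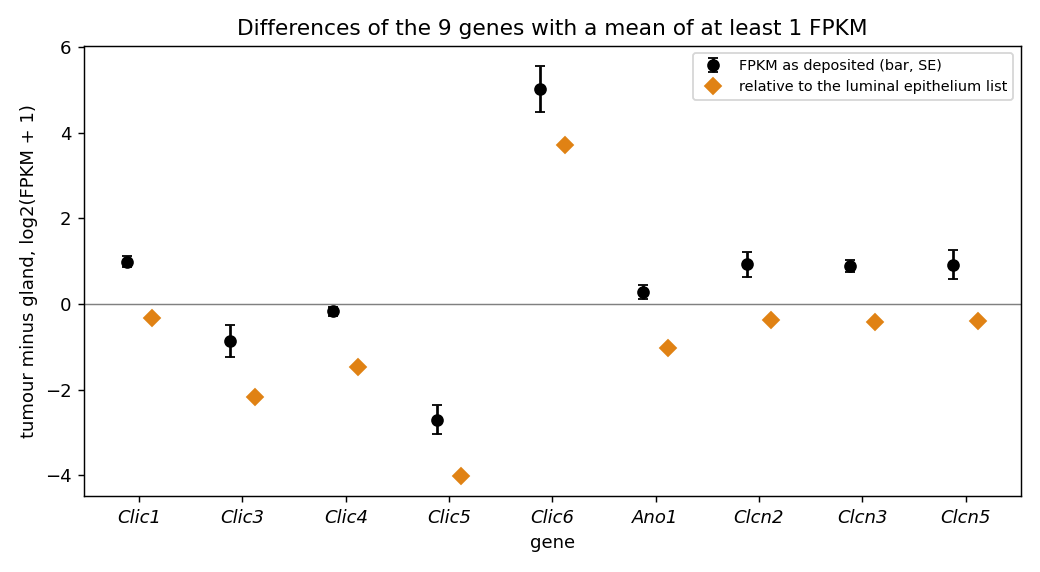
Tumour minus gland difference in log2(FPKM + 1) (y axis) for the 9 tested genes; black points with SE bars use the deposited FPKM, and orange diamonds are relative to the mean of the luminal epithelium list. Each diamond lies 1.31 below its point by construction. Clic6 is above 0 on both scales (5.02 and 3.71), whereas Clic1, Clcn2, Clcn3, Clcn5 and Ano1 change sign between them.

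The genes whose pattern was most like that of Clic6, by the root mean square difference of centred log2(FPKM + 1) values over the 6 libraries, were Chil1 (0.37), Gjb1 (0.46), Rnf183 (0.55), Foxi1 (0.57) and Aqp5 (0.59). Chil1, a chitinase-like secreted glycoprotein gene, stood at 991, 951 and 1898 FPKM in the tumours, against 35.5, 34.7 and 39.8 FPKM in the glands. Gjb1, which encodes a gap junction connexin, stood at 26.2, 26.6 and 46.0 FPKM in the tumours, against 0.303, 0.406 and 0.235 FPKM in the glands. Foxi1, a forkhead transcription factor gene, stood at 49.1, 54.8 and 96.9 FPKM in the tumours, against 2.68, 1.03 and 2.80 FPKM in the glands. The water channel gene Aqp5 stood at 184, 188 and 238 FPKM in the tumours, against 4.70, 4.73 and 7.19 FPKM in the glands. The ubiquitin ligase gene Rnf183 stood at 26.96, 31.5 and 37.8 FPKM in the tumours and was listed at 0 in all 3 glands. All 5 were highest in tumour 3, as Clic6 was and as 40.7% of all tested genes were. They were selected for likeness to Clic6 over these same libraries, so nothing is read from this.

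Beyond the 10 genes, 8 lists of other chloride channels, transporters and their regulators held 72 genes, all of them in the table, of which 42 were tested and 9 were at 0 in every library. Of the 42, 9 passed as higher in the tumours, 8 as lower and 25 did not pass, a share called of 40.5% beside 45.1% of all tested genes. Their median log2 difference was 0.02, beside 0.01 over all tested genes. Quantile normalization gave 13 higher and 5 lower of the 42, beside 3664 and 2622 of the 13364 tested genes. The list-relative scale gave 3 higher and 35 lower, beside 284 and 11851. Of the 9 that passed as higher, Clca3a2, Clca2 and Stk39 were also called higher on the list-relative scale. Without glands 1 and 3, which left 1 gland, calls were lost among the genes named here. Those lost as higher were Ano10 (0.52), Slc12a2 (1.004), Slc4a2 (0.41) and Ezr (0.94). Those lost as lower were Ano9 (-1.02), Ttyh2 (-0.93), Lrrc8c (-1.06), Slc12a4 (-1.68), Slc26a10 (-1.07), Slc26a6 (-0.44) and Slc9a3r2 (-0.38).

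The CLCA genes, which encode secreted or membrane proteins that modulate calcium-activated chloride currents, were higher in the tumours for all 3 tested of 7 listed. Clca3a2 stood at 290, 281 and 391 FPKM in the tumours, against 25.2, 25.1 and 25.7 FPKM in the glands (log2 difference 3.60, SE 0.14, limma adjusted p = 1.57e-05). Clca2 stood at 28.4, 27.8 and 21.9 FPKM in the tumours, against 1.84, 1.09 and 1.14 FPKM in the glands (3.52, SE 0.18, limma adjusted p = 3.07e-05). Clca3a1, named after its values were seen, stood at 27.2 ± 3.87 FPKM in the tumours and 8.39 ± 1.72 FPKM in the glands (SD, n = 3 each), and its call was lost on the list-relative scale (0.28, against 1.59 on the deposited scale). Clca3a1 and Clca3a2 are close copies, and how reads were split between the pair is uncertain.

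Among the cation-chloride cotransporters, 1 of 5 tested genes rose and 2 fell. Slc12a2, the sodium-potassium-chloride cotransporter NKCC1 that loads secretory cells with chloride, rose to 25.4, 26.6 and 42.9 FPKM in the tumours, against 11.3, 14.8 and 13.4 FPKM in the glands (1.17, SE 0.22, limma adjusted p = 0.00471). Its call was lost relative to the luminal list (-0.14) and without glands 1 and 3 (1.004). The potassium-chloride cotransporter gene Slc12a4 fell (-1.78, SE 0.26, limma adjusted p = 0.00182). It stood at 1.83, 2.53 and 0.754 FPKM in the tumours, against 8.66, 7.35 and 7.88 FPKM in the glands. Slc12a7, at 8.58 ± 3.29 FPKM in the tumours and 13.7 ± 3.11 FPKM in the glands (SD, n = 3 each), did not pass, and was called lower without tumour 3 (-0.91).

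Of the kinases and scaffolds of chloride transport, 3 of 11 tested genes rose, 1 fell and 7 did not pass. Stk39, the SPAK kinase that phosphorylates cation-chloride cotransporters, rose to 56.2, 54.0 and 68.5 FPKM in the tumours, against 15.6, 14.9 and 13.4 FPKM in the glands (1.95, SE 0.13, limma adjusted p = 7.83e-05). Slc9a3r1, the PDZ scaffold NHERF1 that binds CFTR, rose to 124 ± 15.9 FPKM in the tumours, against 65.8 ± 7.45 FPKM in the glands (SD, n = 3 each; 0.91, SE 0.14), and Ezr, the ezrin gene named after its values were seen, rose by 0.78. On the list-relative scale both Slc9a3r1 (-0.40) and Ezr (-0.53) were called lower, and without glands 1 and 3 the call of Ezr was lost (0.94). The related scaffold gene Slc9a3r2 fell by 0.42 (SE 0.11), and its call was lost without gland 1 (-0.40) or gland 3 (-0.42). Msn, which encodes moesin, did not pass (-0.38), and was called lower without gland 2 (-0.54). The kinase gene Wnk4, named after its values were seen, stood at 2.37, 3.97 and 15.8 FPKM in the tumours and 1.85, 0.937 and 1.83 FPKM in the glands and did not pass.

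Of 4 other anoctamins tested, Ano10 rose by 0.43 (SE 0.10, limma adjusted p = 0.0111), a call lost at a common sum per library (0.36) and turned to lower on the list-relative scale (-0.88). Ano9 fell to 0.454, 2.12 and 1.92 FPKM in the tumours, against 3.79, 3.80 and 5.06 FPKM in the glands (-1.13, SE 0.31). The call of Ano9 was lost without gland 1 (-1.19), gland 2 (-1.19) or gland 3 (-1.02) and under quantile normalization (-0.71). Ano6 did not pass (-0.44), and was called lower without tumour 3 (-0.62). Of the volume-regulated anion channel genes, Lrrc8c fell to 1.71 ± 0.400 FPKM in the tumours, against 5.09 ± 0.454 FPKM in the glands (-1.18, SE 0.16), and the other 4 tested genes did not pass. The tweety gene Ttyh2 fell by 1.05 (SE 0.14) and Ttyh3 did not pass (0.02).

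None of the 5 tested genes of the other CLC list passed in limma. The most abundant, Clcn4-2, stood at 5.60, 14.9 and 12.5 FPKM in the tumours and 17.3, 18.1 and 19.7 FPKM in the glands, a log2 difference of -0.78 (SE 0.31). It was called lower without tumour 1 (-0.40) or tumour 2 (-1.04). Clcn1, the chloride channel of skeletal muscle, named after its values were seen, was listed at 0 in all 3 tumours and stood at 0, 6.01 and 0.370 FPKM in glands 1 to 3, in the same order as the skeletal muscle markers.

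Of the 6 tested exchangers, Slc4a2, a chloride-bicarbonate exchanger gene, rose by 0.39 (SE 0.12, limma adjusted p = 0.0354), a call lost without tumour 2 (0.29), gland 1 (0.40), gland 2 (0.38) or gland 3 (0.39) and at a common sum per library (0.33). It was called lower on the list-relative scale (-0.92). Slc26a10 (-1.09, SE 0.25) and Slc26a6 (-0.70, SE 0.21) fell. Slc26a10 averaged 0.372 FPKM in the tumours and 1.84 FPKM in the glands, and Slc26a6 0.648 and 1.69 FPKM. Both were low and entered the fit through their gland values. Both calls were lost under quantile normalization (-0.48 and -0.04), and that of Slc26a6 also without tumour 2 (-0.62), gland 1 (-0.64) or gland 3 (-0.64). Slc26a2 did not pass (0.12).

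**Figure D5:**
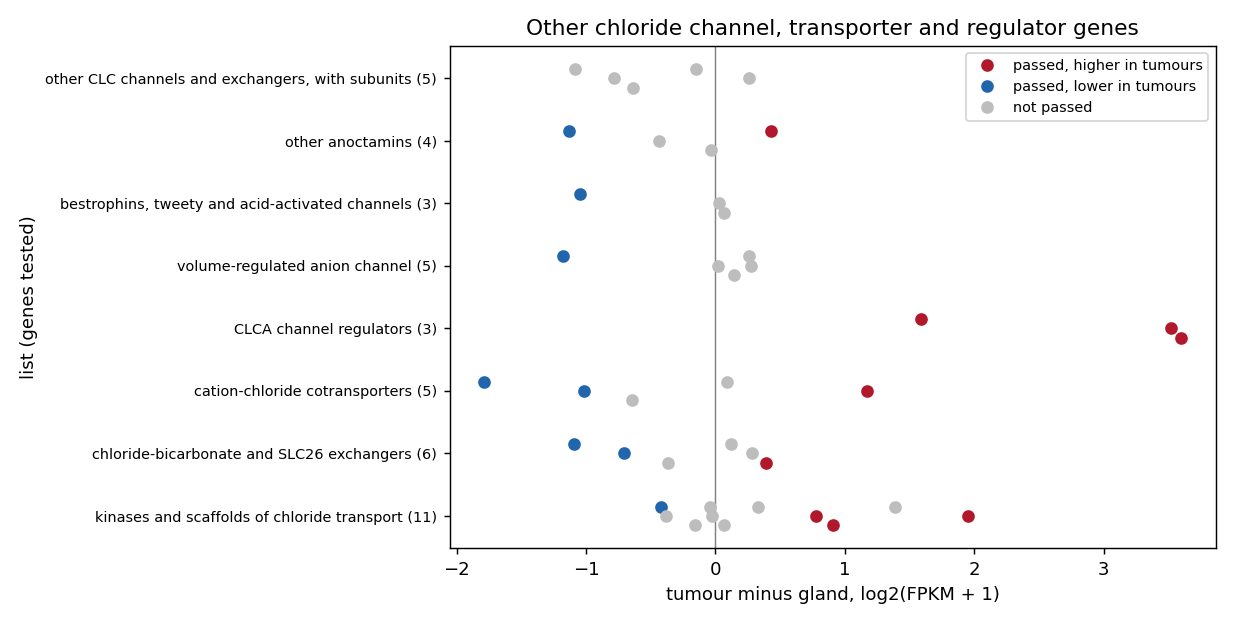
Tumour minus gland difference in log2(FPKM + 1) (x axis) of the 42 tested genes in 8 lists (y axis, with the number tested); red points passed as higher in tumours, blue points passed as lower and grey points did not pass. Clca2 and Clca3a2 lie farthest to the right, at 3.52 and 3.60, and all 3 CLCA points are red.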

How the data were processed

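The deposited table holds 1 value per gene symbol and library, without a named unit. They are read here as FPKM that the authors deposited already normalised, since they were not whole and summed to between 486080 and 582996 per library. HISAT2, StringTie and mm10 are named, without versions, per the submitters' processing notes. The sources used here give neither the annotation nor the strandedness.

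Tumours were compared with glands on log2(FPKM + 1) for the 13364 genes averaging 1 FPKM or more. The test was limma 3.58.1 (trend option, R 4.3.3), and p-values were adjusted by Benjamini-Hochberg over all of these genes, with a threshold of 0.05. The fit was also run on simulated data with independent noise for each gene. Those data held no shifts shared between genes, such as those of tissue composition, so the run does not bear on them. The 10 genes and all lists were chosen with earlier results of these data known.

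Named from each list were up to 2 genes higher and 2 lower with the smallest p, and the most abundant gene that did not pass. The 5 genes most like Clic6 were also named. A result on 1 gene that this rule names is not reported here. Alternatives were a pseudocount of 0.1, no filter or a minimum mean of 5 FPKM, quantile, median-of-ratios and common-sum scaling, values relative to luminal markers, the replicate number as a block, and libraries left out. Positions came from GENCODE M21, and figures from Python 3.11.15 with matplotlib 3.10.9.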

Additional observations from a re-analysis of the deposited data

How the results depend on the processing

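Of the 13364 tested genes 6023 (45.1%) were called. Called among these were 5 of the 9 tested chloride channel genes (55.6%) and 17 of the 42 tested other chloride genes (40.5%). The luminal list scale gave 12135 genes called and 38 of the other chloride genes, and leaving out glands 1 and 3 together gave 2052 genes, 2 of the 10 and 6 of the others, with the 1 remaining gland assumed to vary like the tumours. A mean of at least 5 FPKM left 5 of the 10 genes in the fit, of which 3 were called, beside 4328 of all 9766 genes. With each library left out in turn the count over the table lay between 4307 and 6371. Of the genes named here, values that turned negative on the luminal list scale were those of Clic1 (-0.32), Ano1 (-1.03), Clcn2 (-0.38), Clcn3 (-0.42), Clcn5 (-0.39), Ano10 (-0.88), Ttyh3 (-1.28), Clns1a (-1.03), Slc12a2 (-0.14), Slc4a2 (-0.92), Slc26a2 (-1.19), Slc9a3r1 (-0.40) and Ezr (-0.53), where the median of all genes was -1.30 by construction of the scale. Ttyh3 turned under quantile normalization (-0.0483) and at a common sum (-0.0407) and lay between -0.11 and 0.20 with single libraries left out, and Slc26a2 between -0.14 and 0.34, and the cause was not tested. Quantile normalization moved the median of all genes to 0.12. With pseudocount 0.1 the differences were 6.59 for Clic6 and -4.45 for Clic5.

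The labels do not pair the libraries, and deviations from group means correlated over genes, which are no replicates, at -0.0541, -0.118 and -0.124 for same-numbered tumours and glands. The replicate block gave 4728 of the 13364 tested genes called, 5 of the 9 tested chloride channel genes and 13 of the 42 tested others. The calls of Ano10 (0.43), Slc4a2 (0.39), Slc26a6 (-0.70) and Slc9a3r2 (-0.42) were lost there. Unknown read depth limits the values under 1 FPKM, among them Clic6 in the glands and Clic5 in the tumours.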

Other observations

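Of the 72 other chloride genes, 30 lay under a mean of 1 FPKM and were not tested. The examples here were chosen after their values were seen. Slc26a9, an epithelial chloride transporter gene, stood at 0.355, 1.26 and 2.55 FPKM in tumours 1 to 3, against 0.113, 0.178 and 0.171 FPKM in glands 1 to 3, with tumour 3 again highest. The volume-regulated channel gene Lrrc8e stood at 0.728, 1.12 and 2.16 FPKM in the tumours and at 0.441, 0.644 and 0.742 FPKM in the glands, with overlapping groups. Best1, a bestrophin gene, was listed at 0 in all 3 tumours and at 0.439, 1.09 and 1.08 FPKM in the glands. The neuronal potassium-chloride cotransporter gene Slc12a5 stood at 0, 0.108 and 0.0778 FPKM in the tumours, against 0.633, 0.534 and 0.661 FPKM in the glands. Ano5, an anoctamin gene of skeletal muscle, was listed at 0 in all 3 tumours and at 0.0425, 3.80 and 0.314 FPKM in glands 1 to 3, highest in gland 2 like the skeletal muscle markers.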
